A study of Mus musculus with 16 samples.

Results

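The DNA replication genes described here are 48 mouse genes whose products license, fire and copy replication origins or supply the nucleotides for it, measured in 8 lines of *Sox2*-null embryonic stem cells (ESCs). They were chosen by gene symbol: every probe that the array annotation names for one of the 48 genes was taken, and the brightest probe stood for the gene. A probe was found for 45 of them. None was named for *Gins1*, *Gins2* or *Rfc3*, and the probes of *Orc1*, *Pola1* and *Pole2* were not detected above background in enough lines to be tested, which left 42 measured genes of 9303 genes tested in all. All 42 were detected on all 16 arrays.

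In G1, the origin recognition complex (ORC) together with CDC6 and CDT1 loads the MCM2-7 helicase on DNA as an inactive ring. CDC45 and the GINS complex then switch the helicase on, and polymerase alpha-primase, polymerase delta and polymerase epsilon copy the strands behind it, with PCNA as the sliding clamp. Many of these genes are known targets of the E2F transcription factors, and mouse ESCs are known for a short G1 phase and a large share of cells in S phase.

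Total RNA of each line was labelled and read on 2 Illumina bead arrays. All lines were *Sox2*-null ESCs of the 129/Ola strain with a mouse *Sox2* transgene that doxycycline shuts off, a tet transactivator and a constitutive DsRed transgene. There were 3 S98/102 clones (1, 2 and 4), 2 S113 clones (4 and 5), 1 TSS line and 2 SWT clones (4 and 5). S98/102, S113 and SWT clones were each grown from a single colony rescued by a PiggyBac plasmid that carries human *SOX2* and hygromycin resistance, under doxycycline at 1 µg/ml and hygromycin at 300 µg/ml in the rescue. The *SOX2* of S98/102 has a pair of point mutations in the HMG domain. They impair its pairing with OCT4 on *Utf1*-like motifs, 1 of the kinds whose *Oct4* and *Sox2* sites touch. On *Hoxb1*-like motifs, another such kind, the study reports a reduced complex of both proteins with DNA. The *SOX2* of S113 has 1 point mutation that weakens the pairing on *Fgf4*-like motifs, whose sites are set apart, and that of SWT is wild type. In TSS the mouse transgene was left on, without doxycycline. The labels give the S98/102 clones as *Sox2* 95 mutant. The name S98/102 rests on the study's text, which describes 3 arrayed S98/102 clones and no colonies of the mutant with a change at position 95.

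Between 48.6% and 52.5% of probes were detected on each array, and the 2 arrays of a line correlated at r = 0.9941 to 0.9976 over probes. The line, as the mean of its arrays, was the replicate. Nothing in the labels says that lines came from separate experiments, so p-values measure the spread between these lines. The mouse *Sox2* probe read 5.43, 6.32 and 5.02 in S98/102, 7.67 and 8.04 in S113, 6.39 in TSS and 4.77 and 4.88 in SWT on the log2 scale (clones in the order given above, here and below). Whether it also reads the human transgene is not given in the sources used here. In this probe both S113 clones stood above TSS, in which the mouse transgene was on. The part of this difference in the S113 comparisons was not tested. Of the ESC markers, *Pou5f1* stood at 11.54, 9.70 and 11.22 in S98/102, 11.51 and 11.65 in S113, 11.89 in TSS and 11.50 and 11.60 in SWT. S98/102 clone 2 stood apart: it was lowest of all lines in *Pou5f1*, in *Nanog*, at 10.60, 8.31 and 10.88 in S98/102 and 11.61 and 11.90 in SWT, and in the summed level of 13 naive pluripotency genes. That sum ran from 12163 to 18889 intensity units in S98/102, from 23315 to 23867 in S113, 31683 in TSS and from 24292 to 29416 in SWT, and 1 of the 13 genes passed as higher and 5 as lower in S98/102 than in SWT (11.0% and 12.1% of all genes, shares that also stand behind the counts of the next lists). Genes of extraembryonic endoderm moved the other way, with 12 of 15 higher in S98/102 than in SWT and none lower, and a summed level of 31867 to 75713 in S98/102, 5731 to 20863 in S113, 4523 in TSS and 2442 to 4720 in SWT. *Gata4*, *Foxa2* and *Ttr* were not detected on any TSS or SWT array, and *Ttr* on none of S113. Trophectoderm genes were higher in S98/102 for 7 of 9, with summed levels of 10268 to 15939 in S98/102, 2739 to 3746 in S113, 4865 in TSS and 2566 to 3344 in SWT, and *Cdx2* not detected in SWT. For 6 genes of fibroblasts the sums were 3137 to 9496 in S98/102, 1966 to 2001 in S113, 1479 in TSS and 1616 to 1977 in SWT, with 1 gene higher and 1 lower and *Col3a1* not detected in S113 or SWT. The sums of endoderm, trophectoderm and fibroblast genes were highest in clone 2. The part of these cell type markers in the results that follow was not tested.

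Most replication genes were lower in S98/102 than in SWT, but few passed limma's test after adjustment over all genes. The log2 difference, S98/102 minus SWT, was below 0 for 33 of 42 genes (78.6%, against 51.0% of all genes tested), with a median of -0.29 against -0.01 over all genes. In limma's test, with Benjamini-Hochberg adjustment over all 9303 genes, 6 of the 42 passed an adjusted p of 0.05 as lower, which is 14.3% against 12.1% of all genes, and 0 passed as higher, against 11.0% of all genes. The share that passed as lower was close to that of all genes. *E2f1*, *Mcm7*, *Orc5*, *Rpa2*, *Pold1* and *Cdc45* fell. At an unadjusted p under 0.05, 12 genes were lower (28.6%, against 21.3% of all genes) and 2, *Cdc6* and *Tk1*, were higher (4.76%, against 19.2%). In 23 genes all 3 S98/102 clones lay below both SWT clones (54.8%, against 31.4% of all genes), and in 2 genes above them (4.76%, against 28.5%). In these bulk samples, fewer replicating cells and less RNA of these genes in each cell cannot be told apart.

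The count of 6 moved with the lines used, and so did the share of all genes that passed as lower. Without SWT clone 4 the median difference of the 42 genes was -0.32, and without SWT clone 5 it was -0.28, with 1 SWT line left each time. Leaving out S98/102 clone 4 left 2 genes, *Orc5* and *E2f1* (4.76%, against 5.93% of all genes). Leaving out either S113 clone left the same 2 (4.76%, against 8.02%), although the S113 clones enter only the estimate of spread. Without S98/102 clone 2, 9 genes were lower (21.4%, against 17.5% of all genes), among them *Mcm3*, *Mcm6* and *Pold2*. Then 2 were higher, *Cdc6* and *Tk1*, as were 1551 of all 9303 genes. Without S98/102 clone 1 there were 8, with *Mcm3* and *Pold2* added to the 6. Where arrays were scaled by their medians and not by quantiles, 2 genes passed as lower, *Orc5* and *E2f1* (4.76%, against 6.89% of all genes). Arrays as samples with the line as a random block gave 14 lower (33.3%, against 18.0%).

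**Figure D1:**
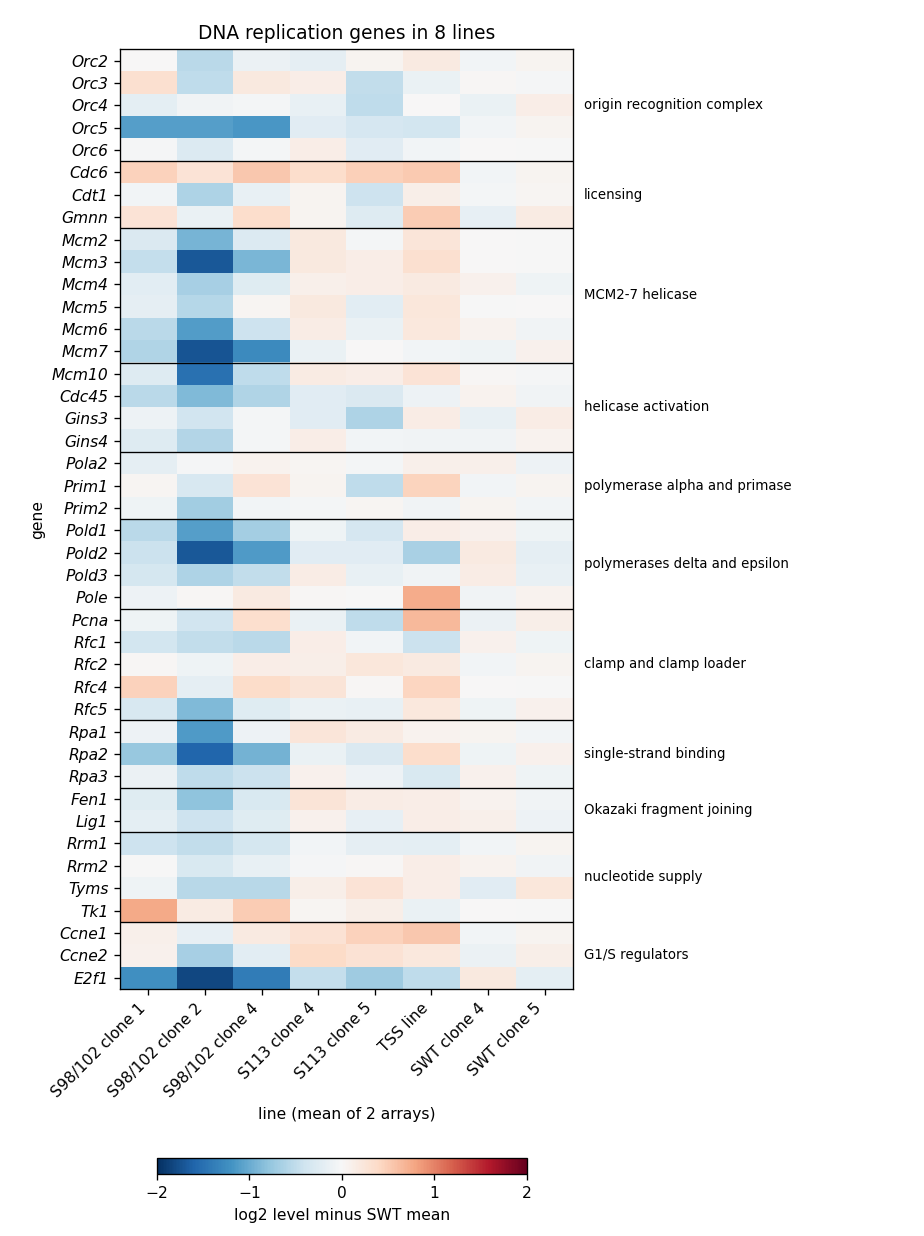
Log2 level of 42 DNA replication genes (rows, by role) in the 3 S98/102, 2 S113, 1 TSS and 2 SWT lines (columns, mean of 2 arrays), minus the mean of the 2 SWT lines, in colour from -2 to 2. *Orc5* and *E2f1* are blue in all 3 S98/102 clones, and clone 2 is the darkest of them in most rows of the MCM2-7 helicase.

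The 3 S98/102 clones did not lie equally low. The median of the 42 genes, relative to the SWT mean, was -0.18 in clone 1, -0.57 in clone 2 and -0.18 in clone 4. It was 0.07 and -0.08 in S113 clones 4 and 5 and 0.14 in TSS. Over all 9303 genes the median was within 0.06 of 0 in every line. Clone 2 was the lowest of the 3 S98/102 clones in 37 of 42 replication genes, against 46.3% of all genes, and the lowest of all 8 lines in 31, against 31.4% of all genes. The SD between lines, as a median over the replication genes, was 0.29 in S98/102, 0.11 in S113 and 0.10 in SWT. Over all genes it was 0.23 in S98/102, 0.12 in S113 and 0.11 in SWT. Without clone 2 the median difference of the 42 genes was -0.13.

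**Figure D2:**
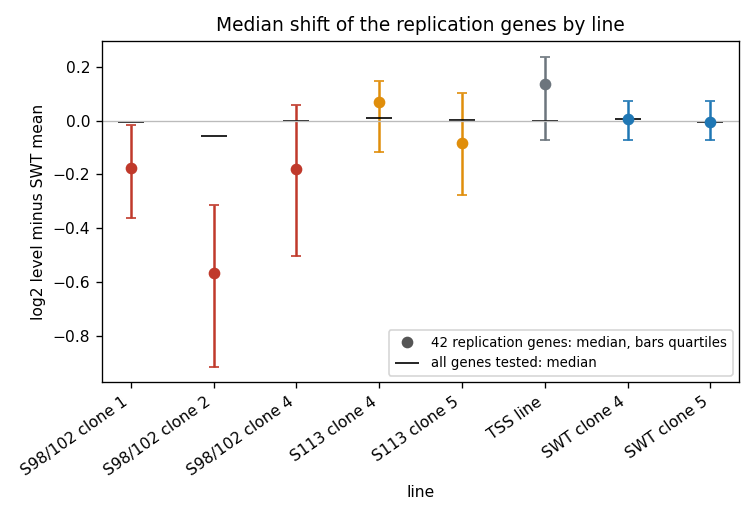
Median of 42 DNA replication genes in each line (points, with bars from the lower to the upper quartile over genes) and median of all genes tested (black dashes), as log2 level minus the mean of the 2 SWT lines. S98/102 clone 2 lies lowest, at -0.57, and TSS highest, at 0.14.

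Of the origin recognition complex, which marks origins, 1 of 5 measured subunits fell in S98/102. This was *Orc5*, whose product is a subunit of the ATPase core. Its log2 levels were 9.07, 9.06 and 9.00 in S98/102, 9.94 and 9.84 in S113, 9.80 in TSS and 10.11 and 10.22 in SWT. All 3 S98/102 clones lay within 0.1 of each other and below every other line. The difference from SWT was -1.12 ± 0.13 (SE, n = 3 and 2 lines; 2.18-fold lower, adjusted p = 0.0041), and a further detected probe of the gene gave -1.20. *Orc5* passed under all 19 alternative settings. The other subunits lay between -0.22 and 0.00, and none passed. *Orc2* was at 5.27, 4.73 and 5.16 in S98/102, 5.09 and 5.32 in S113, 5.45 in TSS and 5.22 and 5.32 in SWT, and *Orc6* at 11.75, 11.49 and 11.73 in S98/102, 11.91 and 11.55 in S113, 11.71 in TSS and 11.79 and 11.76 in SWT. In both genes the low value was that of clone 2. Differences were -0.22 ± 0.20 for *Orc2* (adjusted p = 0.44) and -0.11 ± 0.17 for *Orc6* (adjusted p = 0.64), -0.10 for *Orc4* and 0.00 for *Orc3*. The second *Orc4* probe gave 0.66, of the opposite sign. The promoter of *Orc5* is shown because its fall was the most stable. It is read from RefSeq on GRCm38.p6, chr5:22550289-22550588, minus strand, from 250 bases before the start to 50 after it, and holds none of the E2F words searched for below.
Orc5: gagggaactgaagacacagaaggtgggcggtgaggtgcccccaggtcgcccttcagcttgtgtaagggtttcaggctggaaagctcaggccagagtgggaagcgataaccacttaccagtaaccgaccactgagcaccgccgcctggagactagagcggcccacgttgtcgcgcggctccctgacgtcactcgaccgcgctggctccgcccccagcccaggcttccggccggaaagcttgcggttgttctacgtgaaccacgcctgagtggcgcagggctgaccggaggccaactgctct

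Among the licensing factors, none passed. *Cdc6*, the ATPase that joins ORC to load the helicase, was at 9.71, 9.53 and 9.79 in S98/102, 9.61 and 9.73 in S113, 9.78 in TSS and 9.20 and 9.32 in SWT. Both SWT clones lay below all other lines. The difference of S98/102 from SWT was 0.42 ± 0.14 (adjusted p = 0.074). Its partner in loading, *Cdt1*, was at 11.90, 11.34 and 11.82 in S98/102, 12.02 and 11.55 in S113, 12.09 in TSS and 11.93 and 12.00 in SWT, a difference of -0.28 ± 0.23 (adjusted p = 0.39). *Gmnn*, which encodes the CDT1 inhibitor geminin, was at 6.39, 5.97 and 6.46 in S98/102, 6.16 and 5.86 in S113, 6.62 in TSS and 5.95 and 6.27 in SWT, a difference of 0.16 ± 0.21 (adjusted p = 0.59). The groups overlapped for *Gmnn*, and *Cdt1* was low mainly in clone 2.

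All 6 subunits of the MCM2-7 helicase, the ring that unwinds DNA at the fork, were below SWT, with a median difference of -0.59, and 1 of them passed. *Mcm7* stood at 7.45, 6.31 and 6.77 in S98/102, 7.91 and 8.06 in S113, 7.99 in TSS and 7.96 and 8.12 in SWT. No S98/102 clone reached any other line, and the clones spanned more than 1 log2 unit among themselves. Its difference was -1.20 ± 0.31 (2.29-fold lower, adjusted p = 0.037). In *Mcm3* the S98/102 clones were again the lowest lines, at 7.87, 6.66 and 7.43 in S98/102, 8.55 and 8.48 in S113, 8.67 in TSS and 8.36 and 8.35 in SWT, and the difference of -1.03 ± 0.33 missed the threshold (adjusted p = 0.062). *Mcm6* was at 9.98, 9.39 and 10.10 in S98/102, 10.66 and 10.38 in S113, 10.72 in TSS and 10.58 and 10.45 in SWT, a difference of -0.69 ± 0.24 (adjusted p = 0.074). Its 4 detected probes were all lower in S98/102, by differences of -0.39 to -0.96. *Mcm2* (-0.50), *Mcm4* (-0.37) and *Mcm5* (-0.24) had smaller differences. In all but *Mcm5*, the 3 S98/102 clones lay below both SWT clones and below both S113 clones.

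The E2F site is an element of replication gene promoters, so the words TTTCCCGC, TTTCGCGC, TTTGCCGC and TTTGGCGC were searched for on both strands of the RefSeq promoters. They were found in 38.5% of the 39 replication genes with a promoter in the table, against 2.60% of all genes in it, and in 31.4% of the 35 measured replication genes, against 4.57% of all genes tested. Counted by promoter, the shares were 31.9% of 47 and 2.26% of 32851. The measured genes with more than 1 word were all helicase genes, *Mcm3*, *Mcm5*, *Mcm6* and *Mcm7*, and their promoters are shown with the words in capitals, together with the promoter of *Pold1*. In *Mcm5* and *Mcm6*, the run of 12 capitals is a pair of words on opposite strands that share 4 bases. A match is a description of the letters and not a measured site.
Mcm3, chr1:20820263-20820562, minus strand: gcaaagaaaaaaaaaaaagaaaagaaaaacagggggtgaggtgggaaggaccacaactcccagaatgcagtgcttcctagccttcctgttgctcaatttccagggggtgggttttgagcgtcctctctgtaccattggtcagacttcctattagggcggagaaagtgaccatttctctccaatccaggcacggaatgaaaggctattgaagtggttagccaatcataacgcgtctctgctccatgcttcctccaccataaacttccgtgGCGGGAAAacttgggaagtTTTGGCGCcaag
Mcm5, chr8:75109259-75109558, plus strand: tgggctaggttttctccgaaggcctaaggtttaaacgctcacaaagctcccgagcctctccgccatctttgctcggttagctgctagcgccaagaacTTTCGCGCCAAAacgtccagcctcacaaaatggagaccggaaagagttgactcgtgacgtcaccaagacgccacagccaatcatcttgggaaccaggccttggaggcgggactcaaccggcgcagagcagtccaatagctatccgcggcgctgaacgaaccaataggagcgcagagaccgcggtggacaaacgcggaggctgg
Mcm6, chr1:128359656-128359955, minus strand: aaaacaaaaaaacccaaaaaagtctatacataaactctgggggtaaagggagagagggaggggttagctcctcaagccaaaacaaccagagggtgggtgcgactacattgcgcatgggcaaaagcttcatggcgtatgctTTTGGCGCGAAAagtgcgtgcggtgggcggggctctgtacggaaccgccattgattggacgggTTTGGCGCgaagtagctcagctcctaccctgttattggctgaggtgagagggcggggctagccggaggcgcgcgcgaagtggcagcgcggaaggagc
Mcm7, chr5:138171834-138172133, minus strand: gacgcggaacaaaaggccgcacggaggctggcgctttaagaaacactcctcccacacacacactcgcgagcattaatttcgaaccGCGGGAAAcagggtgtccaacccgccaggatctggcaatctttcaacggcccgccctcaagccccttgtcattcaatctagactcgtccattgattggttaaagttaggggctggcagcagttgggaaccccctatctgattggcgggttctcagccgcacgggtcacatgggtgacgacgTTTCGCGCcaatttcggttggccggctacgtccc
Pold1, chr7:44548766-44549065, minus strand: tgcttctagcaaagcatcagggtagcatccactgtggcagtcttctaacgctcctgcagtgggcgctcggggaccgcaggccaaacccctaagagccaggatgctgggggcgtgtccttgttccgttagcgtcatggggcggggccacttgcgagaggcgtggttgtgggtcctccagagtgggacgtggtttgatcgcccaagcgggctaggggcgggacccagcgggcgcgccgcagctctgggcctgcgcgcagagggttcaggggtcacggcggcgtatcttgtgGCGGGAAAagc

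*Mcm7* has another promoter entry, which held no word. The presence of a word was set beside the differences with no test. The 11 measured genes with a word had a median difference from SWT of -0.29, and 2 of them passed, *Mcm7* and *Pold1*. The 24 with a promoter but no word had a median of -0.41, and 4 passed, *Cdc45*, *E2f1*, *Orc5* and *Rpa2*. *E2f1* was placed there by 1 window, around a start that may lie inside the gene. Words ranged in number from 3 in *Mcm6* to 1 in *Cdc6*, *Cdt1*, *Gins3*, *Lig1*, *Orc3*, *Pold1* and *Pold3*.

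Of the factors that switch the helicase on, all 4 measured were below SWT and 1 fell. *Cdc45*, whose product joins MCM2-7 and GINS in the active helicase, was at 9.08, 8.74 and 9.01 in S98/102, 9.39 and 9.33 in S113, 9.52 in TSS and 9.69 and 9.55 in SWT, with -0.67 ± 0.16 (1.59-fold lower, adjusted p = 0.027). Every S98/102 clone was below every other line. A dimmer *Cdc45* probe, detected in 2 lines, gave -0.14. *Mcm10*, needed for the helicase to start moving, read 11.02, 9.79 and 10.77 in S98/102, 11.44 and 11.41 in S113, 11.55 in TSS and 11.30 and 11.24 in SWT. Clone 2 was more than 1 log2 unit below clone 1, and the difference from SWT was -0.75 ± 0.35 (adjusted p = 0.15). The second *Mcm10* probe gave -1.31. *Gins4* was at 11.60, 11.29 and 11.83 in S98/102, 12.00 and 11.81 in S113, 11.79 in TSS and 11.79 and 11.94 in SWT, a difference of -0.29 ± 0.19 (adjusted p = 0.29), and *Gins3* differed by -0.17.

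Of polymerase alpha-primase, which lays the primers, none of 3 measured subunits passed. *Prim2*, the large primase subunit, was at 8.54, 7.92 and 8.57 in S98/102, 8.58 and 8.66 in S113, 8.56 in TSS and 8.67 and 8.57 in SWT. *Pola2*, the accessory subunit of the polymerase, was at 8.39, 8.54 and 8.63 in S98/102, 8.60 and 8.52 in S113, 8.66 in TSS and 8.66 and 8.47 in SWT. *Prim1*, the catalytic primase subunit, was at 6.01, 5.65 and 6.24 in S98/102, 6.02 and 5.46 in S113, 6.41 in TSS and 5.90 and 6.03 in SWT. The differences from SWT were -0.28 ± 0.22 for *Prim2* (adjusted p = 0.38), -0.04 ± 0.14 for *Pola2* (adjusted p = 0.84) and 0.00 ± 0.24 for *Prim1* (adjusted p = 0.999). Clone 2 alone was low in *Prim2*, the other lines lying within 0.2 of each other, and in *Pola2* and *Prim1* the groups overlapped. The second probe of *Prim2* gave 0.02.

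Polymerase delta, which copies the lagging strand, had negative differences in all 3 measured subunits, and 1 passed. *Pole*, the only subunit of the leading strand polymerase epsilon measured among the 48 genes, lay near 0. The catalytic subunit *Pold1* was at 10.54, 9.98 and 10.41 in S98/102, 11.01 and 10.74 in S113, 11.22 in TSS and 11.17 and 11.00 in SWT, with -0.77 ± 0.20 (1.71-fold lower, adjusted p = 0.038). *Pold2*, an accessory subunit, was at 9.91, 8.64 and 9.20 in S98/102, 10.11 and 10.11 in S113, 9.69 in TSS and 10.52 and 10.16 in SWT, with -1.09 ± 0.35 (adjusted p = 0.064). For *Pold3*, also accessory, the levels were 8.67, 8.40 and 8.52 in S98/102, 9.17 and 8.87 in S113, 8.94 in TSS and 9.17 and 8.86 in SWT, with -0.49 ± 0.17 (adjusted p = 0.083). The groups did not overlap in any of the 3 genes, and *Pold1* passed. *Pole*, the catalytic subunit of polymerase epsilon, differed by 0.03 ± 0.14 (adjusted p = 0.89), and its 3 S98/102 clones, at 7.30, 7.42 and 7.57, spanned the SWT values of 7.32 and 7.47. *Pole4*, an epsilon subunit outside the 48 genes, passed with a log2 difference of -0.73 ± 0.18 (adjusted p = 0.032).

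The clamp and its loader had mixed signs, and none of 5 passed. *Pcna*, the clamp, differed by -0.04 ± 0.24 (adjusted p = 0.92), at 8.54, 8.24 and 8.96 in S98/102 and 8.50 and 8.74 in SWT. *Rfc1*, the large loader subunit, was at 9.49, 9.37 and 9.32 in S98/102, 9.99 and 9.80 in S113, 9.43 in TSS and 9.94 and 9.78 in SWT, a difference of -0.46 ± 0.14 (adjusted p = 0.057). *Rfc5* was at 10.22, 9.65 and 10.29 in S98/102, 10.40 and 10.39 in S113, 10.74 in TSS and 10.44 and 10.63 in SWT, a difference of -0.48 ± 0.22 (adjusted p = 0.14). In both genes all S98/102 clones lay below SWT. *Rfc4*, at 10.22, 9.58 and 10.12 in S98/102, 10.02 and 9.77 in S113, 10.18 in TSS and 9.77 and 9.74 in SWT, differed by 0.22 ± 0.22 (adjusted p = 0.48), with clones 1 and 4 above SWT and clone 2 below it. Its second probe gave -0.05. *Rfc2* differed by 0.02.

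Replication protein A, which coats single-stranded DNA, was lower in all 3 subunits, and *Rpa2* fell. Its levels were 8.77, 7.95 and 8.58 in S98/102, 9.40 and 9.25 in S113, 9.88 in TSS and 9.44 and 9.62 in SWT, with -1.10 ± 0.25 (2.14-fold lower, adjusted p = 0.027). A dimmer probe of the gene gave -0.45. *Rpa3* was at 10.21, 9.82 and 9.90 in S98/102, 10.41 and 10.22 in S113, 10.03 in TSS and 10.42 and 10.24 in SWT, a difference of -0.35 ± 0.17 (adjusted p = 0.17). *Rpa1*, the large subunit, was at 12.48, 11.45 and 12.48 in S98/102, 12.83 and 12.75 in S113, 12.64 in TSS and 12.64 and 12.52 in SWT, a difference of -0.44 ± 0.32 (adjusted p = 0.33). In *Rpa1* clones 1 and 4 were within 0.1 of the lower SWT clone, and clone 2 was more than 1 log2 unit below them.

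The enzymes that join Okazaki fragments did not pass. *Fen1*, the flap nuclease, was at 10.32, 9.75 and 10.26 in S98/102, 10.82 and 10.71 in S113, 10.69 in TSS and 10.64 and 10.49 in SWT, with -0.45 ± 0.20 (adjusted p = 0.14), and the ligase gene *Lig1* at 10.29, 10.07 and 10.25 in S98/102, 10.57 and 10.32 in S113, 10.63 in TSS and 10.60 and 10.38 in SWT, with -0.29 ± 0.16 (adjusted p = 0.21). All S98/102 clones were below SWT in both. The 4 *Lig1* probes ranged from -1.09 to 0.11.

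Of the genes of nucleotide supply, none passed and they did not share a sign. *Rrm1*, the large subunit of ribonucleotide reductase, was at 9.10, 9.02 and 9.16 in S98/102, 9.46 and 9.34 in S113, 9.31 in TSS and 9.46 and 9.57 in SWT, with -0.42 ± 0.13 (adjusted p = 0.062). *Tk1*, thymidine kinase of the salvage pathway, was at 10.51, 9.92 and 10.26 in S98/102, 9.79 and 9.87 in S113, 9.63 in TSS and 9.76 and 9.75 in SWT, with 0.47 ± 0.19 (adjusted p = 0.11). The groups did not overlap in either gene, *Rrm1* being lower and *Tk1* higher in S98/102, and all 3 detected *Tk1* probes had positive differences. *Tyms*, thymidylate synthase, was at 10.73, 10.26 and 10.26 in S98/102, 10.93 and 11.09 in S113, 10.95 in TSS and 10.59 and 11.04 in SWT, with -0.40 ± 0.22 (adjusted p = 0.21). *Rrm2*, the small reductase subunit, differed by -0.16.

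*E2f1*, the transcription factor that drives genes for S phase entry, had the largest difference of the 42 genes, and the cyclin E genes did not pass. *E2f1* was at 8.69, 8.09 and 8.51 in S98/102, 9.43 and 9.19 in S113, 9.40 in TSS and 10.10 and 9.72 in SWT. Both SWT clones were above all other lines, S113 and TSS lay between, and the 3 S98/102 clones were lowest. The difference was -1.48 ± 0.22 (2.79-fold lower, adjusted p = 0.0086). It passed under 18 of 19 alternative settings, and without SWT clone 4 its adjusted p was 0.080. *Ccne2* was at 6.81, 6.05 and 6.50 in S98/102, 7.10 and 7.01 in S113, 6.93 in TSS and 6.60 and 6.82 in SWT, with -0.26 ± 0.23 (adjusted p = 0.43). *Ccne1* was at 8.44, 8.18 and 8.52 in S98/102, 8.64 and 8.80 in S113, 8.88 in TSS and 8.29 and 8.40 in SWT, with 0.03 ± 0.16 (adjusted p = 0.89). In the cyclin E genes, whose products activate CDK2 at S phase entry, the S98/102 and SWT groups overlapped. The RefSeq window of *E2f1* (GRCm38.p6, chr2:154569377-154569676, minus strand) is shown beside that of *Orc5*, as it too held none of the E2F words. It surrounds 1 listed start, which may lie inside the gene, and other starts of *E2f1* were not searched. Its lack of a word does not show that *E2f1* has no E2F site.
E2f1: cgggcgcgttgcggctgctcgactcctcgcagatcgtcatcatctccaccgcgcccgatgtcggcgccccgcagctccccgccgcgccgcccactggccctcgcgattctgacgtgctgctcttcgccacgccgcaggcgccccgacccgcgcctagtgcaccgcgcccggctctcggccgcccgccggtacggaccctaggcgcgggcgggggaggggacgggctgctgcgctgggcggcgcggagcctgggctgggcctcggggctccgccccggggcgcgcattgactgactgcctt

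**Figure D3:**
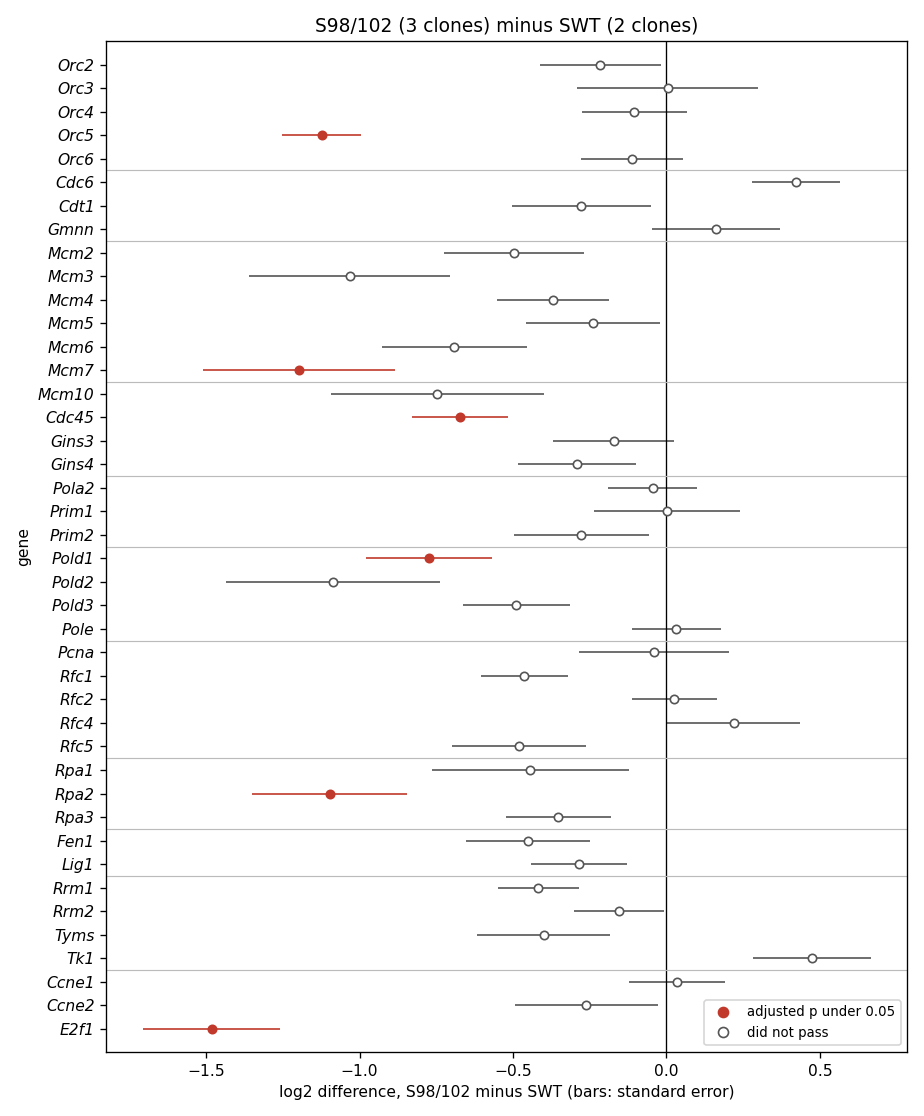
Log2 difference, S98/102 (3 clones) minus SWT (2 clones), of 42 DNA replication genes by role, with bars of 1 standard error from limma. Filled points passed an adjusted p of 0.05, and all 6 of them lie left of 0, from -0.67 for *Cdc45* to -1.48 for *E2f1*.

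**Figure D4:**
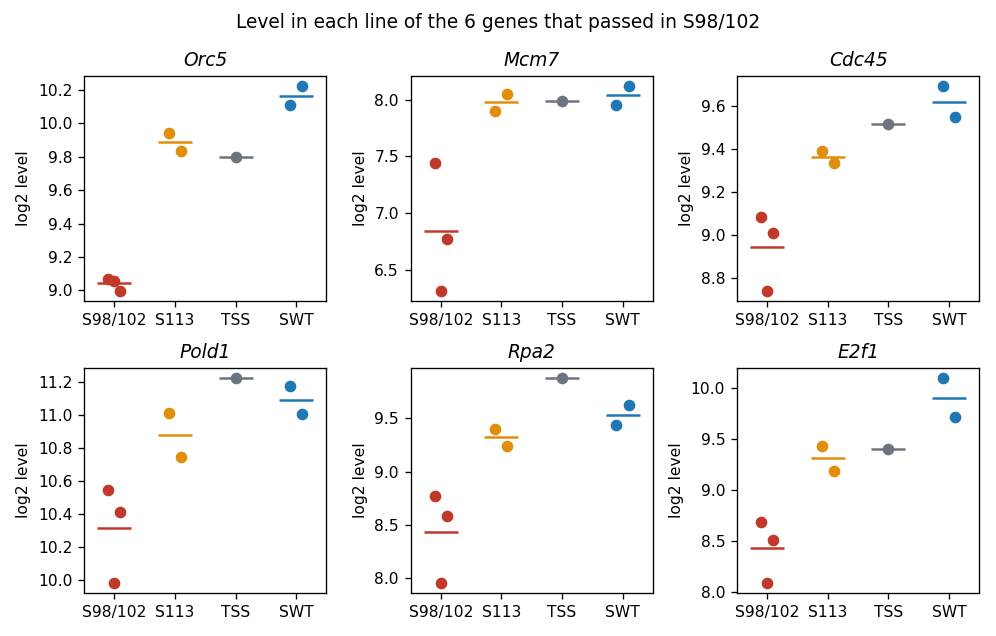
Log2 level in each line (points, mean of 2 arrays) of the 6 DNA replication genes that passed in S98/102 minus SWT, with the group mean as a bar. The vertical axes start above 0 and differ between panels. The 3 S98/102 clones lie below all other lines in each panel, and *Orc5* has the tightest S98/102 clones, from 9.00 to 9.07.

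The S113 clones were set against SWT to ask whether the mutant with weakened pairing on *Fgf4*-like motifs moves the same genes. In limma's fit 0 of 42 genes passed in either direction, as did 0 of all 9303 genes (0.00%). At an unadjusted p under 0.05, 2 of 42 were called (4.76%, against 9.28% of all genes), 1 of them lower (2.38%, against 4.74%) and 1 higher (2.38%, against 4.54%). The lower gene was *E2f1*, with a difference of -0.60 ± 0.25 (adjusted p = 0.53), and the higher one *Cdc6*, with 0.41 ± 0.16 (adjusted p = 0.49). With arrays as samples and the line as a random block, limma called 218 genes and none of the 42. The median difference of the 42 genes was -0.01 (all genes 0.01), with a range from -0.60 to 0.41, and 24 were below 0 (57.1%, against 48.9%). The S113 clones were both above both SWT clones in 11 genes (26.2%, against 26.3% of all genes) and below them in 9 (21.4%, against 25.1%). For the helicase the differences ran from -0.06 to 0.16.

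Part of the spread between the S113 clones went with chromosome 8. *Cdt1*, *Gins3*, *Gins4*, *Mcm5* and *Orc6* lie on it, and all 5 were lower in S113 clone 5 than in clone 4, by log2 differences of -0.19 to -0.47 with a median of -0.40. The 511 genes tested on chromosome 8 had a median of -0.35 between these clones, with 83.6% below 0, and the 8789 on other chromosomes a median of 0.00. For the 37 replication genes elsewhere it was -0.09. Without S113 clone 4, the S98/102 minus S113 differences of *Orc6* and *Cdt1* were 0.11 and 0.13, against -0.07 and -0.10 with it. Set relative to the genes of the same chromosome, the 6 calls against SWT were unchanged. Chromosome 14, whose median relative to SWT was -0.37 in S98/102 clone 1 and -0.33 in clone 4, holds none of the 48 genes.

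**Figure D5:**
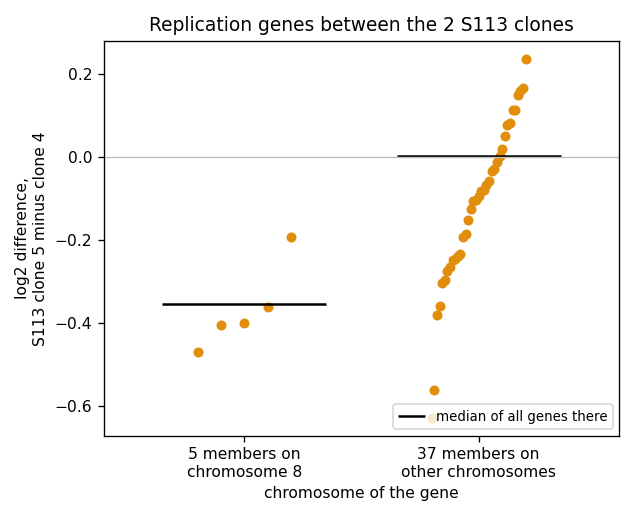
Log2 difference between the S113 clones, clone 5 minus clone 4, for the 5 replication genes on chromosome 8 and the 37 on other chromosomes (points), with the median of all genes tested on the same chromosomes as a black line. All 5 points of chromosome 8 lie below 0, around that chromosome's median of -0.35.

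S98/102 and S113 were compared directly to ask where the mutants differ from each other. The 42 genes had a median difference, S98/102 minus S113, of -0.33, against -0.02 over all genes, and 32 were below 0 (76.2%, against 51.8%). By limma 1 of 42 passed as lower, 2.38% against 5.08% of all genes, and 0 as higher, against 4.17% (9.26% of all genes in either direction). This was *Orc5*, at -0.85 ± 0.13 (adjusted p = 0.018). The call was lost without S98/102 clone 4, without either S113 clone and with S98/102 clones 1 and 4 averaged as 1 line. Over 19 alternatives the adjusted p was at most 0.16 and the difference stayed between -0.90 and -0.76. At an unadjusted p under 0.05, 17 genes were lower (40.5%, against 17.2%) and 0 higher (0.00%, against 15.1%). Without clone 2, 7 were lower after adjustment (16.7%, against 9.72% of all genes) and 1, *Tk1*, was higher, as were 864 of all 9303 genes. Without clone 1, 6 were lower (14.3%, against 5.60%). Next in order were *E2f1* with -0.88 ± 0.22 (adjusted p = 0.056), *Mcm3* with -1.19 ± 0.33 and *Mcm7* with -1.14 ± 0.31 (both adjusted p = 0.066). All 3 S98/102 clones lay below both S113 clones in 24 genes (57.1%, against 28.8% of all genes) and above them in 1 (2.38%, against 25.1%). *Cdc6* was level between the mutants, at 0.01 ± 0.14.

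The TSS line, in which the mouse transgene was on, was set against SWT as another source of wild-type SOX2. It is a single line, assumed to vary like the others, and the absence of doxycycline, the rescue plasmid with its selection, and the species of the transgene cannot be told apart. In limma's fit 0 of 42 genes passed in either direction, as did 0 of all 9303 (0.00%). At an unadjusted p under 0.05, 3 of 42 were higher (7.14%, against 4.75% of all genes) and 0 lower (0.00%, against 5.07%). These were *Pole*, at 8.14 in TSS and 7.32 and 7.47 in SWT, *Cdc6*, at 9.78 in TSS and 9.20 and 9.32 in SWT, and *Ccne1*, at 8.88 in TSS and 8.29 and 8.40 in SWT. Adjusted p was 0.38 for *Pole*, 0.48 for *Cdc6* and 0.48 for *Ccne1*. With arrays as samples and the line as a random block, limma called 84 genes and none of the 42. The median difference of the 42 genes was 0.14, against 0.00 over all genes. TSS was the highest of the 8 lines in 19 of 42 genes, against 13.2% of all genes, and lay above both SWT clones in 25 (59.5%, against 39.8%) and below them in 11 (26.2%, against 40.3%). The 3 comparisons with SWT share its 2 clones.

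In the further lists of the same pathway, every gene that passed in S98/102 minus SWT was lower. Over all genes 12.1% passed as lower and 11.0% as higher, and with 8 to 11 measured genes a list, 1 call is near that share. Of 11 measured genes of origin firing and fork protection, 1 was lower than SWT, *Wdhd1*, an adaptor between helicase and polymerase alpha, with -1.16 ± 0.23 (adjusted p = 0.016). This gene lies on chromosome 14, on which clones 1 and 4 were low as a whole. Of 9 further polymerases and fork enzymes, 2 were lower, *Pole4* and the topoisomerase gene *Top2a*, at 9.51, 9.22 and 9.29 in S98/102, 10.36 and 10.22 in S113, 10.34 in TSS and 10.29 and 10.18 in SWT. Of 8 genes of chromatin assembly behind the fork, 1 was lower, *Nasp*, a histone chaperone, with -1.20 ± 0.23 (adjusted p = 0.016). Of 9 further genes of nucleotide metabolism, 3 were lower: *Ctps*, CTP synthase, with -0.75 ± 0.17, *Dtymk*, thymidylate kinase, with -1.05 ± 0.25, and *Shmt1*, a serine hydroxymethyltransferase, with -0.90 ± 0.21. None of these lists had a gene that was higher, and their medians ran from -0.28 to -0.49.

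Both genes for dimer partners of E2F fell in S98/102. Of 10 E2F and pocket protein genes, 3 were lower and none higher, where 12.1% of all genes were lower and 11.0% higher, with a median of -0.45. These were *Tfdp2*, at 6.59, 6.48 and 6.63 in S98/102, 7.58 and 7.15 in S113, 7.61 in TSS and 7.64 and 7.80 in SWT, *Tfdp1*, with -0.82 ± 0.16, and *E2f5*, a repressive E2F, with -0.85 ± 0.16. In *E2f5* the S113 clones lay with S98/102, at 9.40 and 9.24 in S113 and 9.95 and 10.23 in SWT. Of 9 cyclins and kinases of G1 and S, 1 was lower, *Ccnd1*, which encodes cyclin D1. It was at 7.26, 8.93 and 7.78 in S98/102, 10.66 and 10.10 in S113, 10.01 in TSS and 10.95 and 10.75 in SWT, with -2.86 ± 0.47 (adjusted p = 0.010), and was higher in clone 2 than in the other S98/102 clones. None of 7 CDK inhibitor genes and none of 9 mitosis genes passed, with medians of 0.14 and -0.41. Of 9 replication checkpoint genes, 5 were lower, against 12.1% of all genes, and none higher, with a median of -0.75. Among them were *Atrip*, the partner of the ATR kinase, with -0.87 ± 0.18 (adjusted p = 0.021), *Etaa1*, an activator of ATR, with -0.75 ± 0.17 (adjusted p = 0.024), and *Rad1*, a subunit of the checkpoint clamp, with -1.03 ± 0.26 (adjusted p = 0.033). No probe was named for *Mki67*.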

How the data were processed

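Per the labels' processing notes, scanner intensity values were summarized for each probe with BeadStudio 3.2. The authors deposited these intensities without normalization, beside a detection p-value that sets each probe against negative controls. A deposited table of log2 values, already corrected for background and quantile normalized, served as an alternative. The notes also name RMA and lumi, without their roles. Here neqc (limma 3.58.1, R 4.3.3) inferred the background from the detection p-values, added an offset of 16, quantile normalized and took log2. The array held 25697 probes. Of these, 23978 name 1 gene, and 23962 were matched to RefSeq by Entrez identifier. A probe had to reach a detection p under 0.05 on both arrays in 2 or more lines. This left 12673 probes and, with the brightest for each gene, 9303 genes.

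Group means over all 8 lines were fitted with lmFit and eBayes, with two-sided p-values and Benjamini-Hochberg adjustment over all genes (threshold 0.05). The fit was tested on simulated data with 200 changed genes. The number of lines limits the precision. Named genes were, in each role, up to 3 members with the smallest p in S98/102 minus SWT, any member that passed elsewhere, and up to 3 genes that passed in each further list. The members and lists were chosen with earlier results of these data known. Sums of cell type markers add linear normalized levels. Alternatives changed the normalization, filter, probe rule, fit and lines used. RefSeq promoters (GRCm38.p6) were matched by symbol.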

Additional observations from a re-analysis of the deposited data

Results flagged for a closer look

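*Orc5* differed from SWT by more in S98/102 than in S113. The log2 difference from SWT was -1.12 in S98/102 and -0.28 in S113, and the difference between the mutants, tested directly with limma, was -0.85 (adjusted p = 0.018). All 3 S98/102 clones, at 9.07, 9.06 and 9.00, lay below both S113 clones, at 9.94 and 9.84. The call was lost without S98/102 clone 4, without either S113 clone and with S98/102 clones 1 and 4 averaged as 1 line. No other of the 42 genes differed between the mutants after adjustment. No group had enough lines to look for single outlying lines.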

How the results depend on the processing

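S98/102 minus SWT called 6 replication genes lower and 0 higher in the main setting, among 2145 genes in all. Median shift in place of quantile normalization gave 2 lower (4.76%, against 6.89% of all genes). It moved the median of all genes to 0.10 (0.15 in TSS minus SWT), while the members stood at -0.25. An offset of 50 gave 1 higher. Arrays with the line as a random block gave 14 lower (33.3%, against 18.0% of all genes), among 3243 genes called in either direction. With the replicate block (array number), 13 were lower (31.0%, against 17.5%) and 1 higher, as were 1546 of all 9303 genes. Leaving out 1 line gave 1 to 9 lower, 0 to 2 higher and 257 to 3183 genes in all. Against S113, the main setting had 1 lower and 861 genes in either direction. The offset of 50 gave 2 lower (4.76%, against 4.99% of all genes). The random block gave 12 lower (28.6%, against 12.6%) among 2252 genes in either direction. The replicate block gave 9 lower (21.4%, against 12.0%) among 2145. With S98/102 clones 1 and 4 averaged as 1 line, 0 were lower (against 1.64%) among 259. Leaving out 1 line gave 0 to 7 lower, 0 to 1 higher and 10 to 1768 genes. S113 minus SWT, with 0 genes, gave 2 with the deposited log2 values, 218 and 178 with the random and replicate blocks, and 0 to 147 without 1 line, with no replication gene in any of these. TSS minus SWT, with 0 genes, gave 1 with no detection filter and 84 and 66 with the random and replicate blocks. Its median over the 42 genes, 0.14, was 0.13 with the offset of 50, 0.27 with median shift, 0.15 with the mean of a gene's probes, 0.15 relative to the chromosome, and 0.12 to 0.14 without 1 line.

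Signs turned for genes that did not pass. With median shift, *Orc4* was at 0.0861, *Gins3* at 0.0632 and *Pola2* at 0.12 in S98/102 minus SWT, and *Rrm1* at 0.0045 in TSS minus SWT. With the mean of its probes *Orc4* was at 0.28. Without 1 line, S98/102 minus S113 ran from -0.251 to 0.111 for *Orc6*, from -0.336 to 0.134 for *Cdt1*, from -0.129 to 0.498 for *Orc3* and from -0.0551 to 0.505 for *Prim1*, and S113 minus SWT from -0.505 to 0.0558 for *Prim1*. The turned signs came without S113 clone 4 for *Orc6* and *Cdt1*, and without S113 clone 5 for the others. The cause was not tested. Array numbers did not pair the lines: over 28 pairs of lines the correlation of array 1 deviations ran from -0.19 to 0.22, over 0.1 in 4. Of the members, *Orc5* passed against SWT in 19 of 19 alternatives, *E2f1* in 18, *Cdc45* and *Rpa2* in 12, *Mcm7* in 11 and *Pold1* in 10. Groups of 2 or 3 lines, and 1 line for TSS, limit what could be called.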
